A study of Homo sapiens
Mus musculus with 6 samples.

Results

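Ryr3, Igfn1, Gpr17, Nkx2-5, Ogdhl, Kif1a, Arpp21, Slc24a3 and Onecut2 are 9 of the 23433 distinct entries of the mouse count table. They were chosen by their read counts, as genes nearly absent from C2C12-control cells and clearly read in C2C12-Notch1 cells, so their difference between those lines is described below and not tested. All 9 passed the filter on low counts, and did so through the C2C12-Notch1 wells in which they are high.

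RNA was sequenced from 6 co-culture wells, 1 for each pairing of a mouse line with a human line. The mouse cells were C2C12, a skeletal myoblast line, either wild type (C2C12-control) or expressing full-length Notch1 and kept under puromycin (C2C12-Notch1). The human cells were HEK-293-Flp-In embryonic kidney cells, either control (HEK-control), expressing wild-type Jag1 (HEK-Jag1WT) or expressing Jag1Ndr, the Nodder form (HEK-Jag1Ndr), with the ligand lines kept under hygromycin. In every well the mouse cells had settled for 8 h, were transfected with 1.6 ug of the plasmid pcDNA5, received the human cells 18 h later and were lysed after 6 h of contact. Neither the promoter driving Notch1 nor whether the line is 1 clone was available from the labels, so effects of Notch1 and other differences between the 2 mouse lines cannot be told apart.

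Notch receptors are activated by ligands on a neighbouring cell. The released intracellular part of the receptor joins the DNA-binding protein RBPJ and switches on targets such as Nrarp and the Hey genes. In myoblasts this pathway is known for holding back muscle differentiation. The 9 genes belong to no single pathway. Ryr3 encodes a calcium release channel of the endoplasmic and sarcoplasmic reticulum, Slc24a3 a potassium-dependent sodium/calcium exchanger, and Igfn1 a muscle protein with immunoglobulin and fibronectin domains. Nkx2-5 and Onecut2 encode homeobox transcription factors, known from heart and from liver, pancreas and neurons. Gpr17 encodes an orphan receptor related to the P2Y and leukotriene receptors, known from immature oligodendrocytes. Kif1a encodes a motor for synaptic vesicle precursors, Arpp21 a phosphoprotein of striatal neurons, and Ogdhl a mitochondrial relative of oxoglutarate dehydrogenase.

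Mouse reads numbered 2263529 to 7965231 per well, the fewest in C2C12-Notch1 with HEK-Jag1WT, and made up 47.2% to 52.7% of all reads assigned to genes where C2C12-control cells were plated and 29.6% to 36.5% where C2C12-Notch1 cells were. In these bulk wells, fewer cells of a kind and less RNA per cell cannot be told apart. Notch1 itself was read at 9.06 to 20.4 RPKM (reads scaled to gene length and to library size) in the C2C12-control wells and 158 to 179 RPKM in the C2C12-Notch1 wells. The myoblast markers Myod1, Des and Cdh15 were read in all 6 wells, at lowest values of 27.8, 339 and 190 RPKM. Of the 8 markers on that list 4 were higher in C2C12-Notch1 cells and 3 lower, with a median log2 difference of 0.27. Among all tested genes 28.4% were called higher and 29.4% lower, with a median of 0.00. The 4 markers with the smallest p were Msc, a repressor, at -2.46, Myod1 at 0.94, Des at -0.61 and Myog, a differentiation factor, at 1.48.

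The calcium channel gene showed the widest gap. Ryr3 stood at 0.753, 0.650 and 0.126 CPM (reads per 1000000 mouse reads) in C2C12-control cells, given here and below in the order of partners HEK-control, then HEK-Jag1WT, then HEK-Jag1Ndr, which is 7 reads in all. In C2C12-Notch1 cells beside the same partners it stood at 22.7, 21.6 and 22.6 CPM, from 254 reads. The 3 C2C12-Notch1 values had a coefficient of variation (CV) of 2.60%, less than the 11.6% that counting alone gives on average. Pooled over wells the ratio was 53.1, with a 95% counting interval of 25.4 to 134. Counting intervals here are exact, conditional on the summed reads, and cover counting error only. The other calcium transport gene, Slc24a3, was the least absent of the 9 in C2C12-control cells, at 1.26, 2.82 and 1.76 CPM against 22.5, 19.4 and 24.7 in C2C12-Notch1 cells. Its pooled ratio was 11.7 (8.09 to 17.5), the smallest of the 9.

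Igfn1, the muscle immunoglobulin-domain gene, had 0.251, 0.217 and 0.502 CPM in C2C12-control cells, in the same order of partners, from 6 reads. It had 17.3, 10.2 and 9.36 in C2C12-Notch1 cells, highest beside HEK-control. Its CV over the C2C12-Notch1 wells was 35.6%, the widest of the 9, where counting alone gives 15.6%. The pooled ratio was 36.4 (16.3 to 101).

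Among the transcription factor genes, Nkx2-5 had 1.004, 0.217 and 1.004 CPM in C2C12-control cells and 15.0, 16.8 and 10.4 in C2C12-Notch1 cells. Its lowest C2C12-Notch1 well was 10.4-fold above its highest C2C12-control well, and its pooled ratio was 17.6 (9.98 to 33.7). Onecut2 had 0.753, 0.217 and 0.879 CPM against 9.03, 7.95 and 7.54. With 94 reads over the C2C12-Notch1 wells it was the most thinly covered of the 9, and its ratio of 12.5 had an interval of 6.68 to 25.9.

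Gpr17, the orphan receptor gene, was the most abundantly read of the 9, with 466 reads over the C2C12-Notch1 wells. It stood at 1.26, 1.30 and 2.01 CPM in C2C12-control cells and at 47.3, 35.8 and 36.1 in C2C12-Notch1 cells, a pooled ratio of 25.3 (17.1 to 38.8). As with Igfn1, its highest C2C12-Notch1 well was the one beside HEK-control.

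Kif1a, the motor gene, had 0.251, 1.08 and 1.004 CPM in C2C12-control cells and 12.5, 10.2 and 11.4 in C2C12-Notch1 cells, a ratio of 13.8 (7.94 to 25.9). Arpp21 had 0.753, 0.867 and 0.753 against 12.5, 7.51 and 9.62, a ratio of 13.4 (7.54 to 25.9). The metabolic gene Ogdhl had 1.76, 1.30 and 0.753 against 19.6, 14.6 and 16.6, a ratio of 15.3 (9.56 to 26.0). For each of the 9 genes every C2C12-Notch1 well was above every C2C12-control well, by 6.90-fold (Slc24a3) to 28.7-fold (Ryr3) between the nearest pair. This separation is what the genes were chosen for.

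**Figure D1:**
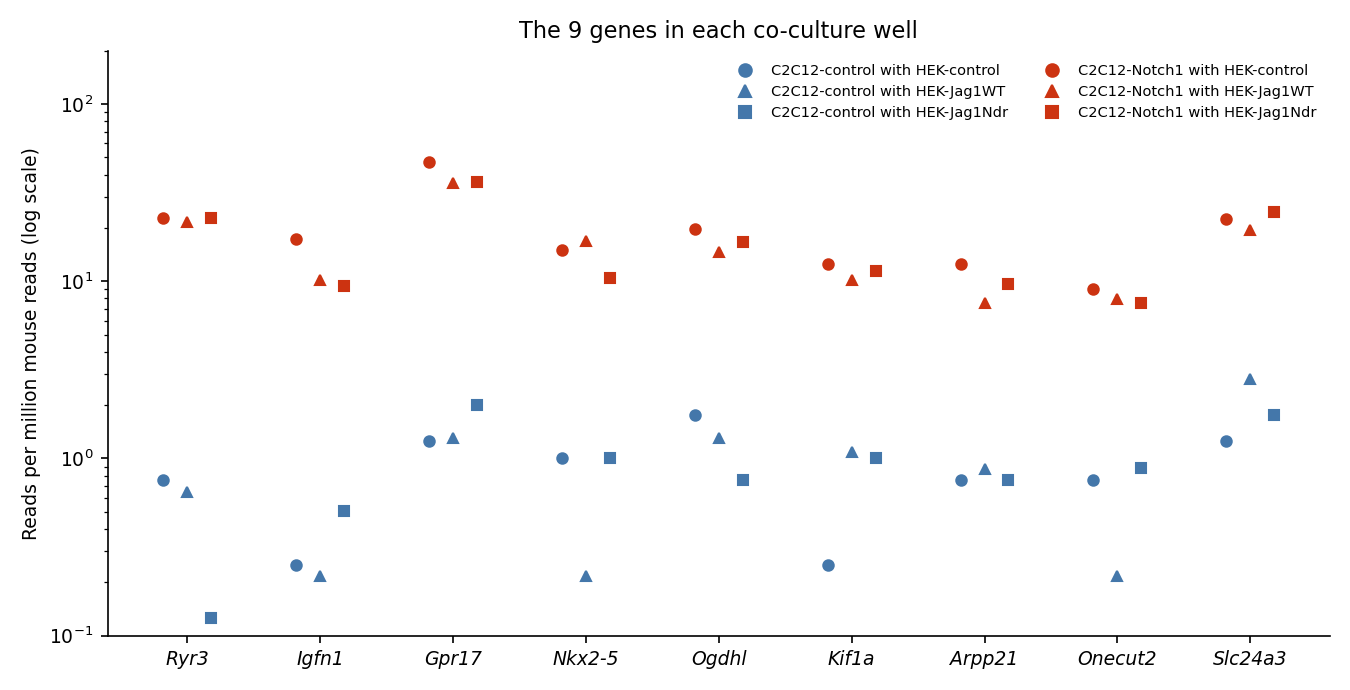
CPM (log scale) of each gene in the 6 wells, C2C12-control in blue and C2C12-Notch1 in red, with the marker shape giving the human partner. Each point is 1 well; the nearest points of the 2 colours are 6.90-fold apart for Slc24a3 and 28.7-fold apart for Ryr3.

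Summed over the 9 genes, the C2C12-control wells held 8.03, 8.67 and 8.79 CPM and the C2C12-Notch1 wells 178, 144 and 148, in the same order of partners. The well beside HEK-control was the highest of the C2C12-Notch1 wells.

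Per length, the genes were expressed at low levels even where they are high. In C2C12-Notch1 cells Nkx2-5 had 9.24 RPKM ± 2.17 (SD, n = 3), Gpr17 7.94 ± 1.31, Slc24a3 6.47 ± 0.802 and Ogdhl 4.88 ± 0.762. Each of these 4 overlapped its neighbour in this order over the 3 wells. Arpp21 followed at 2.81 RPKM ± 0.765, apart from Ogdhl above it and from the next group below. Ryr3 at 1.44 RPKM ± 0.0429, Kif1a at 1.36 ± 0.149 and Igfn1 at 1.36 ± 0.492 overlapped one another, and Onecut2 was lowest at 0.612 ± 0.0575. The median of all 11365 tested genes in these wells was 15.9 RPKM, and 3.32% (Onecut2) to 34.3% (Nkx2-5) of tested genes lay below the individual members.

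The choice of the 9 followed no fixed number, so other genes with the same pattern were counted. Under 1 CPM in each C2C12-control well and over 5 in each C2C12-Notch1 well were met by 8 entries of the table. Ryr3, Igfn1, Arpp21 and Onecut2 were 4 of them; the others were Cntnap3, Map3k9, Trdn and Plagl1. With a limit of 2 in the C2C12-control wells there were 17 entries, 7 of the 9 genes among them. Gpr17 and Slc24a3 exceeded that limit. The reverse pattern, under 1 in C2C12-Notch1 and over 5 in C2C12-control wells, was met by 59 entries. By pooled ratio, with genes of few C2C12-control reads set at the floor of 3 reads, the members ranked from place 1 (Ryr3) to place 22 (Slc24a3) among tested genes. Since the ratio of Cntnap3, with 0 such reads, is a lower bound, its order relative to Ryr3 is not known. Cited1 and Ccnb1ip1, with 2 such reads each, were also set at the floor, at 32.7 and 13.2. Their places depend on it too, including that of Cited1 below Igfn1. Just outside came Mmp15, a membrane metalloproteinase gene, at 11.7 with 78 reads in the C2C12-control wells, and Colec10 at 11.0 with 4 such reads.

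**Figure D2:**
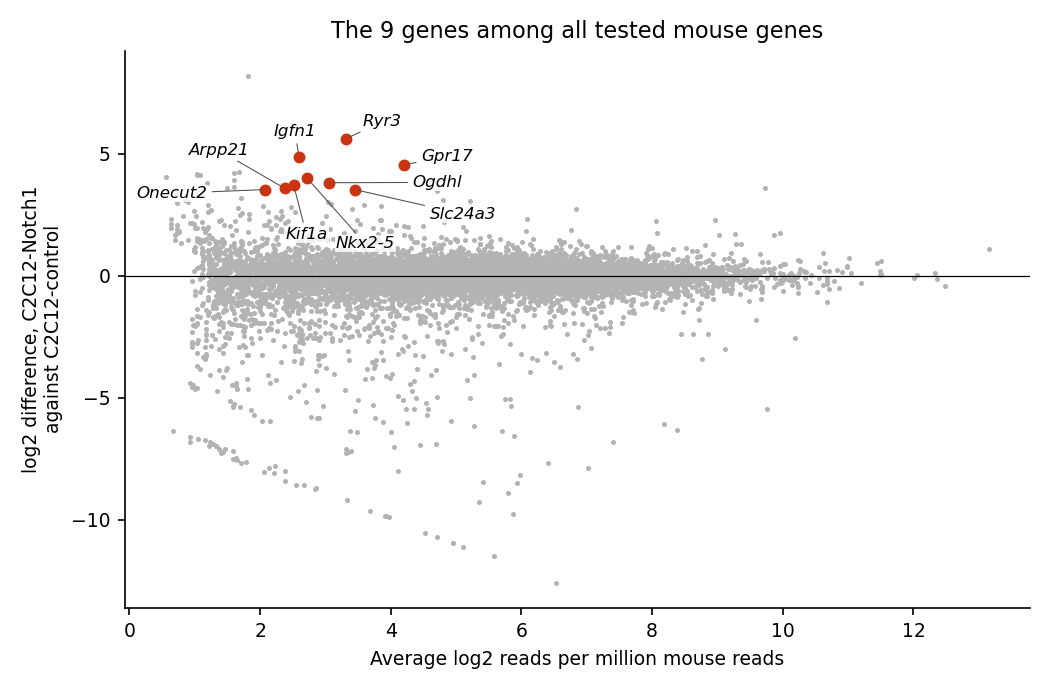
Each point is 1 of the 11365 tested mouse genes, by its average log2 CPM (x) and its fitted log2 difference between C2C12-Notch1 and C2C12-control cells (y), with the 9 genes in red. The 9 lie at the upper edge of the cloud; fitted differences of genes with 0 reads in one line, such as those in the descending row at lower left, depend on the software's prior count.

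The genes closest in pattern were sought over the 6 wells, by root mean square distance from the mean centred log2(CPM + 0.5) profile of the 9. Closest was Mmp15 (distance 0.174), with 21, 21 and 36 reads in C2C12-control wells and 317, 98 and 207 in C2C12-Notch1 wells. Cited1, a transcriptional cofactor gene (0.228), had 2 reads in C2C12-control and 67 in C2C12-Notch1 wells. The metalloproteinase gene Pappa (0.318) had 146 and 837. Cntnap3, a neurexin-family adhesion gene (0.333), had 0 reads in C2C12-control and 85 in C2C12-Notch1 wells, at least 41.5-fold higher against a floor of 3 reads over the group. Place 6 was taken by Notch1 itself (0.367), followed by Trdn, Mkx, Mcam and Cd200. The members lay at 0.269 (Igfn1) to 0.602 (Ryr3) from their own mean, so some of these genes are closer to it than the members are.

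The levels were also compared between human partners, and with them between Notch ligands. The choice asked for clear reads in all 3 C2C12-Notch1 wells and near absence in all 3 C2C12-control wells, which works against genes with a large partner effect, so these comparisons describe the genes chosen and are not independent of the choice. None of the 9 passed in any of the 3 comparisons of HEK lines, in an edgeR quasi-likelihood model with terms for the mouse and the human line over all 6 wells. Beside HEK-Jag1WT against HEK-control 0 of 9 were called, where 4.46% of all tested genes were called. Beside HEK-Jag1Ndr against HEK-control 0 of 9 were called (0.528% of all), and beside HEK-Jag1Ndr against HEK-Jag1WT 0 of 9 (2.03% of all). With so few members, 0 calls is near those background shares. At an unadjusted p under 0.05 the counts were 1, 1 and 0, with Igfn1 in both of the first comparisons, and DESeq2 called 0 of those it gave an adjusted p. The higher and lower calls over all genes were 307 and 200 in the first comparison (250 and 281 under scaling by library size only), and 49 and 11 in the second (36 and 16).

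The members' median log2 difference was -0.29 beside HEK-Jag1WT, -0.28 beside HEK-Jag1Ndr and 0.06 between the 2 ligand lines, against medians of 0.00 over all tested genes in each case. In each of the first 2 comparisons 7 of 9 values were below 0; these comparisons share the HEK-control wells.

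Ryr3 differed by -0.0033 beside HEK-Jag1WT (95% interval -0.54 to 0.53, edgeR adjusted p 0.999) and by -0.03 beside HEK-Jag1Ndr (-0.49 to 0.43). Slc24a3 differed by 0.03 (-0.48 to 0.54) and 0.17 (-0.26 to 0.60). Gpr17 stood at -0.35 (-0.73 to 0.04, adjusted p 0.446) and -0.28 (-0.62 to 0.05). The highest bound among these 3 genes was 0.60 and the lowest -0.73, for genes chosen to be high beside every partner.

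Igfn1 was the one gene whose intervals lay below 0. Its log2 difference was -0.72 beside HEK-Jag1WT (SE 0.341, interval -1.40 to -0.04, unadjusted p 0.0390, edgeR adjusted p 0.327) and -0.75 beside HEK-Jag1Ndr (SE 0.293, -1.34 to -0.17, 0.0129, 0.443). Between the ligand lines it stood at -0.03 (-0.82 to 0.75). It did not pass the correction over all genes in any of these.

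For Nkx2-5 the 2 comparisons with HEK-control gave 0.06 (-0.56 to 0.69) and -0.39 (-0.98 to 0.19). Onecut2 had the widest interval of the 9 in the first comparison, -1.11 to 0.54 around -0.29 beside HEK-Jag1WT, and Arpp21 reached from -1.31 to 0.17 around -0.57. Differences within these intervals were not excluded by the fit at this depth, and no detection limit was computed. The lowest adjusted p of any member in the 3 comparisons was 0.327.

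**Figure D3:**
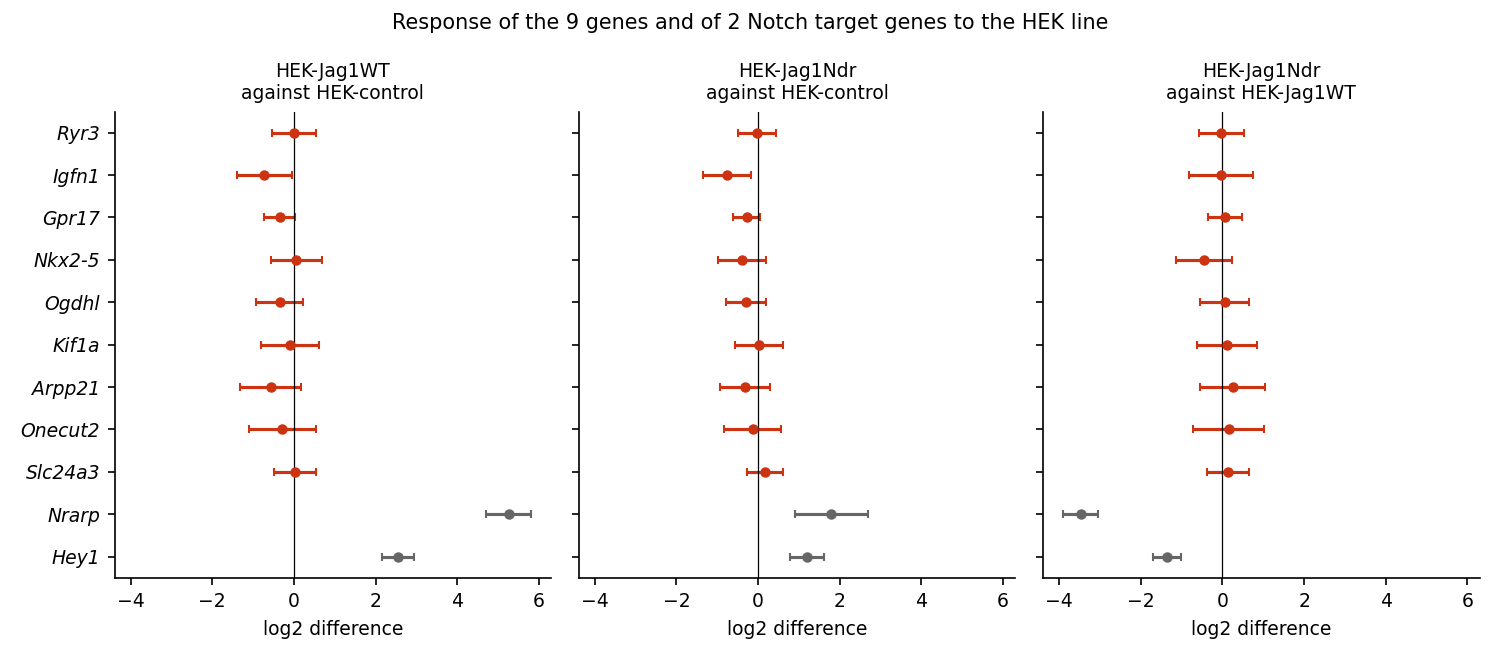
Log2 difference (x) of each of the 9 genes (red) and of Nrarp and Hey1 (grey) in the 3 comparisons of HEK lines, with 95% intervals from the edgeR fit over 6 wells. The 9 genes stay between -0.75 and 0.25, while Nrarp reaches 5.27 and Hey1 2.56 in the first comparison and 1.79 and 1.20 in the second.

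The members' reads come almost entirely from C2C12-Notch1 cells, so for them the fit rested mainly on 1 such well per partner. Its intervals were about as wide as counting intervals from those wells. For Igfn1 beside HEK-Jag1WT they were -1.40 to -0.04 in the fit and -1.45 to -0.04 by counting. The same ratios were therefore taken within the C2C12-Notch1 line, from single wells and with no test. Against HEK-control, the log2 ratio beside HEK-Jag1WT ran from -0.72 (Igfn1) to 0.21 (Nkx2-5) with a median of -0.25, and the 95% counting interval held 0 for 8 of 9 genes. Beside HEK-Jag1Ndr it ran from -0.85 (Igfn1) to 0.17 (Slc24a3) with a median of -0.22, and the interval held 0 for 7 of 9, the others being Igfn1 and Gpr17 (-0.35, -0.66 to -0.04). Nrarp, a Notch feedback inhibitor, had 10, 174 and 22 reads in the same wells, and Hey1, a target repressor gene, had 437, 879 and 695. Nrarp passed in the 6-well fit beside HEK-Jag1WT at 5.27 (edgeR adjusted p 9.88e-23), as did Hey1 at 2.56 (0.000156). Beside HEK-Jag1Ndr Nrarp passed at 1.79 (0.0395), and Hey1 stood at 1.20 (0.0581) and did not pass.

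The human cells of each well express some of the orthologous genes, so the human table was read for all 9. KIF1A stood at 48.9 to 80.4 RPKM there, NKX2-5 at 15.9 to 21.9 and ONECUT2 at 3.57 to 6.42, with each species scaled to its own reads. On these separate scales each lay above its mouse counterpart in C2C12-Notch1 cells. OGDHL reached 2.21 RPKM, SLC24A3 1.65, IGFN1 0.685 and RYR3 0.194. GPR17 had at most 2 human reads in a well and ARPP21 had 0 in all 6.

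For the 3 genes with the most human reads (at least 132 in every well), mouse reads were set against human reads. Per 1000 KIF1A reads there were 0.571, 1.96 and 1.59 Kif1a reads in C2C12-control wells, in the same order of partners, and 14.6, 8.72 and 10.0 in the matching C2C12-Notch1 wells. Per 1000 NKX2-5 reads there were 30.3, 6.17 and 35.4 Nkx2-5 reads and 196, 223 and 222. Per 1000 ONECUT2 reads there were 8.52, 2.30 and 16.6 Onecut2 reads and 56.8, 32.4 and 75.3. The mouse reads in these ratios are those the genes were chosen on, and human reads varied less, so the separation of the ratios follows from the choice and is given as a description.

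**Figure D4:**
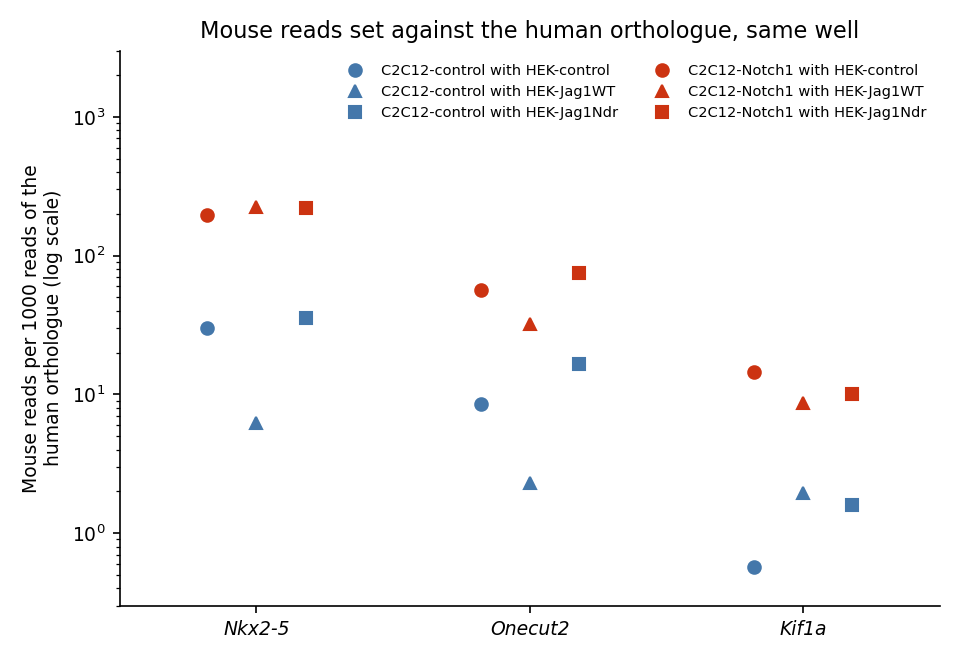
Mouse reads per 1000 reads of the human orthologue in the same well (log scale) for Nkx2-5, Onecut2 and Kif1a, C2C12-control in blue and C2C12-Notch1 in red. The ratios stand at 8.72 to 14.6 in C2C12-Notch1 and 0.571 to 1.96 in C2C12-control wells for Kif1a, a separation that follows from the choice of the genes by their mouse reads.

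The relatives of the 9 genes were not used in the choice and were tested between the mouse lines. Of 49 listed relatives 21 were tested, and 5 rose and 10 fell in C2C12-Notch1 cells, where 28.4% of all tested genes were called higher and 29.4% lower. The list median was -0.04, against 0.00 over all tested genes.

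Ryr1, the skeletal muscle ryanodine receptor gene, rose by log2 1.60 (SE 0.166, edgeR adjusted p 3.95e-07), while the inositol trisphosphate receptor genes Itpr2 and Itpr3 fell by 1.10 and 0.44 on the log2 scale. Ryr2, the cardiac form, had 1 read over the 6 wells. Among the relatives of Igfn1 with similar domains, the M-band genes Myom1, Myom2 and Myom3 rose by 1.46, 1.05 and 1.44, and Mybph stood at 0.10 (adjusted p 0.417). All 6 kinesins related to Kif1a fell, from Kif1b at -0.19 (adjusted p 0.00321) to Kif16b at -1.06 (4.43e-12). The call of Kif1b was lost under DESeq2 and limma and that of Kif13b under DESeq2 (highest adjusted p over all alternatives 0.247 and 0.0617).

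No relative of Nkx2-5 passed the filter; 6 of 8 had 0 reads, and Nkx2-3 had 7 reads in C2C12-control and 12 in C2C12-Notch1 wells. Onecut1 and Onecut3 had 0 reads in all wells, so Onecut2 was the one Onecut gene read. Among the exchangers, Slc24a6, a mitochondrial sodium/calcium exchanger gene, was lower by log2 -0.89 (edgeR adjusted p 2.92e-16), and Slc24a2 had 0 reads. Slc24a5 did not pass the filter, with 4 reads in C2C12-control and 13 in C2C12-Notch1 wells. Under either limma version 2 relatives of Slc24a3 were tested, 1 higher and 1 lower. Of the P2Y and leukotriene receptor genes related to Gpr17, P2ry2 was tested and stood at 0.03 (adjusted p 0.893). Ogdh, the main oxoglutarate dehydrogenase gene, stood at 0.05 (0.368) and was read at 45.3 to 51.7 RPKM over the 6 wells. Ogdhl made up 0.728% of its family's summed RPKM in C2C12-control cells and 8.79% in C2C12-Notch1 cells, and Gpr17 6.45% and 64.9% of its family. The members' reads in these shares are those the genes were chosen on. The rise of each share therefore follows from the choice, and its size depends on the level of the relatives. R3hdm2, related to Arpp21, was lower by log2 -0.21 (adjusted p 0.00864) and R3hdm1 rose by 0.18 (0.0495). Both calls were lost under DESeq2, limma and without either HEK-Jag1WT well, that of R3hdm1 in 4 further alternatives, with highest adjusted p values of 0.207 and 0.465 over all alternatives.

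**Figure D5:**
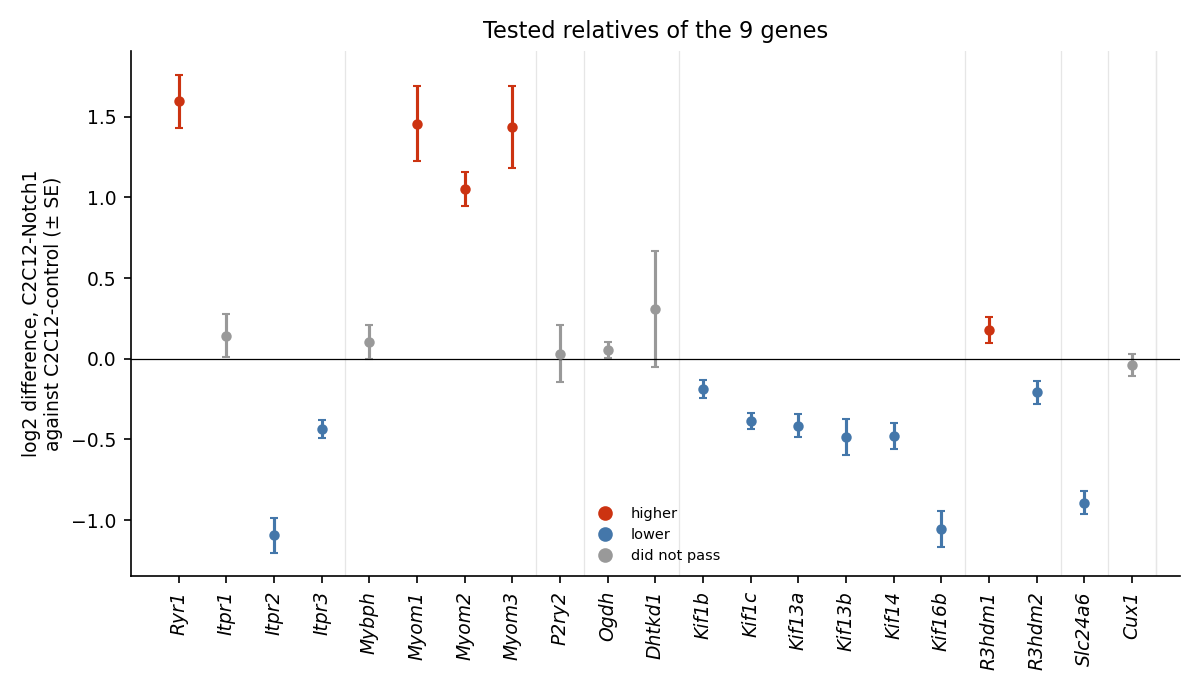
Log2 difference between C2C12-Notch1 and C2C12-control cells (± SE, edgeR, 6 wells) of the 21 tested relatives, grouped by family with light lines between families; red passed higher, blue passed lower, grey did not pass. Ryr1 and the 3 Myom genes stand above 1, and the 6 kinesins lie between -0.19 and -1.06.

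The calcium store around Ryr3 was read from a list of 26 sarcoplasmic reticulum and excitation-contraction genes. Of 19 tested, 10 rose and 3 fell, with a median of 0.67, against the 28.4% higher and 29.4% lower among all tested genes. DESeq2 called 8 higher and 2 lower. Trdn, which encodes the ryanodine receptor partner triadin, had 6 reads in C2C12-control and 66 in C2C12-Notch1 wells and rose by log2 3.92 (SE 0.457, edgeR adjusted p 9.45e-11). It met the gained pattern counted above and passed the filter through the C2C12-Notch1 wells. Its p-value and its place among the 10 are therefore not independent of that pattern. Srl (sarcalumenin) rose by 1.29, Jph2, a junction protein gene, by 0.82 and Cacng1, a calcium channel subunit gene, by 0.80. The 3 lower genes, named after their values were seen, were Orai1, the store-operated channel gene (-0.75), its activator Stim2 (-0.32) and Fkbp1a (-0.13). The call of Fkbp1a was lost under DESeq2, limma and without any of the 4 wells beside HEK-control or HEK-Jag1WT (highest adjusted p 0.155). Stim1, on the same list, went the other way from Stim2 and rose by 0.71 (SE 0.138, edgeR adjusted p 1.30e-05). Of a list of 12 other calcium exchangers and pumps 4 were tested, and 0 rose and 3 fell: the plasma membrane pump genes Atp2b1 (-0.38) and Atp2b4 (-0.23), and the mitochondrial exchanger gene Slc24a6 given above. Under either limma version 1 of 5 was higher and 3 were lower.

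Lists of the tissues in which some members are best known were read beside them. Among 26 cardiac genes 9 were tested, 5 higher and 2 lower, with a median of 0.25. The shares over all tested genes were 28.4% higher and 29.4% lower. Ankrd1 rose by 0.94 and Myl4 by 0.88 on the log2 scale, while Mef2c stood at -1.20 and Tbx3 at -0.64. Tbx5, Hand1, Hand2, Myl7 and Myl2 were at 0 in all wells, and Nppa had 1 read. DESeq2 called 2 higher and 2 lower, limma 3 higher and 4 lower of 15, and the fit with no filter 5 higher and 4 lower of 18. Among genes of the list too low to be tested, some were named after their values were seen. Nppb had 42 reads in C2C12-control and 6 in C2C12-Notch1 wells, Gata6 22 and 0, and Tbx20 15 and 2. Others went the other way, among them Myh6 with 2 and 8 reads, Tbx2 with 5 and 7, and Isl1 with 3 and 5. The list's summed level was 475 to 543 RPKM in C2C12-control and 684 to 768 RPKM in C2C12-Notch1 wells. Ankrd1 alone went from 226 to 236 RPKM in the former to 408 to 501 RPKM in the latter, while Tnnt2 stood at 201 to 270 and 208 to 235 RPKM. The list's part in the level of Nkx2-5 was not tested.

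Of 22 neuronal genes 8 were tested, 1 higher (Stmn2 at 1.09) and 7 lower, with a median of -0.56. Here and for the next list, the shares over all tested genes were 28.4% higher and 29.4% lower. Gap43, a growth cone gene, fell by 4.07 on the log2 scale and Map2 by 2.13. DESeq2 called 1 higher and 4 lower of 8, and limma 1 higher and 4 lower of 10. Snap25, Elavl4, Dcx and Ina were at 0 in all wells. The summed level was 372 to 419 RPKM in C2C12-control and 291 to 294 RPKM in C2C12-Notch1 wells. Of 12 oligodendrocyte lineage genes 4 were tested, 0 higher and 3 lower (Cnp, a myelin enzyme gene, at -0.77 and the receptor gene Pdgfra at -0.64), with a median of -0.46, and DESeq2 called 2 lower. Olig1, Olig2 and Nkx2-2 were at 0 in all wells. Their summed level was 29.0 to 31.4 and 19.6 to 21.5 RPKM. The part of either list in the levels of Gpr17, Kif1a and Arpp21 was not tested.

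The citric acid cycle list around Ogdhl changed little in size: all 20 genes were tested, 7 higher and 3 lower, with a median of 0.08. Over all tested genes 28.4% were higher and 29.4% lower. Idh3a, an isocitrate dehydrogenase subunit gene, rose by 0.37 and Pdha1, of pyruvate dehydrogenase, by 0.25. DESeq2 called 4 higher and 0 lower. Dlst, whose product joins Ogdh in its complex, rose by 0.20, a call lost under limma and without either HEK-Jag1Ndr well (highest adjusted p 0.176).

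Reads at the Gpr17 locus may be shared with another gene. In the human RefSeq table (GRCh38) GPR17 overlaps LIMS2, and the libraries do not mark strand. The mouse gene Lims2, which encodes an adhesion adaptor, had 136, 133 and 284 reads in the C2C12-control wells and 10, 3 and 6 in the C2C12-Notch1 wells, and fell by 4.32 on the log2 scale (SE 0.212, edgeR adjusted p 1.90e-25). It was low where Gpr17 was high, and it was looked up after the values of Gpr17 were seen. The mouse arrangement was not analysed here. RYR3 overlaps AVEN in the same table, and mouse Aven stood at 0.29 (adjusted p 0.0245), a call lost under DESeq2, limma and without any of the 4 wells with a ligand line (highest adjusted p 0.391). ARPP21 hosts MIR128-2, whose mouse entry had 0 reads in all wells of these polyA libraries.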

How the data were processed

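Libraries were prepared with TruSeq RNA reagents, per the labels' protocols, a chemistry that loses strand. Per the labels, 6 wells were sequenced. The submitters' processing notes name STAR, mm9 and hg19. How reads were counted and split by species is not given in the sources used here.

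For each species the authors deposited, per the file headers, whole-number read counts and RPKM values per RefSeq gene and well. Exact repeats were left out (472 mouse and 448 human entries) and 93 and 240 repeated names were suffixed.

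The deposited mouse counts were fitted with edgeR 4.0.16 in R 4.3.3 (TMM, filterByExpr, robust quasi-likelihood, additive terms for mouse and human line, all 6 wells, 2 residual degrees of freedom), with Benjamini-Hochberg adjustment over all 11365 tested genes at 0.05. Each pairing has 1 well, so 3 wells per mouse line and 2 per human line served as replicates, and an effect particular to 1 pairing counted as spread. Wells were seeded separately in 1 plate, per the labels, so a p-value reflects variation among wells of a single experiment. For the members, with few C2C12-control reads, the HEK comparisons rested mainly on 1 C2C12-Notch1 well per partner. Their p-values and intervals there reflect mostly counting error, not spread among replicate wells. SE is the log2 difference divided by the root of F. CPM, computed here, is the count per 1000000 mouse reads of the well. The deposited RPKM values gave levels. Human counts and RPKM were described, not tested. Alternatives were RLE and library-size scaling, no filter, DESeq2 1.42.0, limma 3.58.1 on log2(RPKM + 0.1 or 1) for genes with a mean RPKM of at least 0.1, and leaving out each well.

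Members and lists were chosen with earlier results of these data known. Named were all members, the 10 genes most like them, up to 4 genes per list by smallest p, relatives, and others said to be looked up later. Some genes that this rule names are not reported here. Overlaps come from human RefSeq; mouse positions and sequences were not used here.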

Additional observations from a re-analysis of the deposited data

How the results depend on the processing

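No member was called in any comparison of HEK lines under any alternative: 0 of 108 values (9 genes, 12 alternatives) beside HEK-Jag1WT, with a lowest adjusted p of 0.254, 0 of 99 beside HEK-Jag1Ndr (0.273) and 0 of 99 between the ligand lines (0.645), where DESeq2 gave the members no adjusted p. The log2 values ran from -2.35 to 1.88, -2.27 to 1.99 and -2.24 to 1.92. The far ends were among fits without a C2C12-Notch1 well, where both comparisons involving that well's partner rest on the few C2C12-control reads.

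Counts of called mouse genes beside HEK-Jag1WT were 507, and 151 with DESeq2, 81 and 90 with limma on log2(RPKM + 0.1) and log2(RPKM + 1), and 303 to 580 without 1 well (320 and 303 without the C2C12-control and C2C12-Notch1 wells beside HEK-Jag1WT). Beside HEK-Jag1Ndr they were 60, and 91 with no filter, 7 with DESeq2, 2 with either limma version and 40 to 84 without 1 well. Between the ligand lines they were 231, and 37 with DESeq2, 3 and 1 with limma and 138 to 313 without 1 well (141 and 138 without those same wells, and 150 without C2C12-Notch1 beside HEK-Jag1Ndr). Between the mouse lines they were 6569, and 3585 with DESeq2 and 5382 to 5966 without 1 well. The cause of these differences was not tested.

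The count of 8 entries with the gained pattern became 2 under 0.5 and over 5 CPM, 1 under 1 and over 10, 17 under 2 and over 5, and 5 in RPKM under 0.5 and over 2. Of the 10 genes most like the members 7 were also among the 10 by log2(RPKM + 0.1). No paired analysis was possible because the labels give no replicate numbers, beyond the pairing of mouse lines by human partner that the additive model already holds. The shallowest well, with 2263529 mouse reads, held 17 to 81 reads of each member.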
